A study of Mus musculus with 13 samples.

Results

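The structure of photoreceptor outer segments and of the matrix around them was followed through 9 genes: Prph2, Rom1, Prom1, Cdhr1, Fscn2, Rp1, Rp1l1, Impg1 and Impg2. They were chosen by name for their known roles, and all 9 were found among the 29700 nuclear genes of the count table and passed the filter on low counts. RNA-seq was performed on 1 retina per mouse in 13 mice of 3 groups. The groups were C57BL/6J wild-type (WT) mice on base diet at 2 months of age (n = 4), Rpe65-/- mice, labelled as of C57BL/6J background, on the same base diet as vehicle (n = 4), and Rpe65-/- mice given a diet with tamsulosin, metoprolol and bromocriptine (TMB, n = 5). The TMB diet began on postnatal day 22, and both Rpe65-/- groups were collected on day 64. Tamsulosin blocks alpha-1 adrenergic receptors, metoprolol blocks beta-1 adrenergic receptors and bromocriptine activates dopamine D2-type receptors. Rpe65-/- mice lack the isomerase of the retinal pigment epithelium that regenerates the visual chromophore, and are used to model Leber congenital amaurosis. The study's own reporting leaves the exact background of the Rpe65-/- line open, and WT and Rpe65-/- mice are not described as littermates, so genotype, strain and colony cannot be told apart. The labels name selection of polyadenylated RNA, but their growth and treatment notes describe another mouse line, so the library protocol of these samples is uncertain.

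Libraries are named by group, the letter of the labelled sex and a number. Nuclear counts per library lay between 13512155 and 16449989. Rpe65 counts were 106, 226, 135 and 72 in the WT libraries, 6, 8, 6 and 1 in vehicle and 0, 0, 3, 4 and 7 in TMB libraries, in the direction of the labels. Vehicle F2, labelled female, held 0.0659 CPM (counts scaled to 1e+06 nuclear counts) of Xist and 92.2 CPM of the Y-linked Eif2s3y, against its label. WT F4 stood apart from the other WT libraries: the mean log2 deviation of the GC-richest 20% of genes was 0.28 in WT F4, between -0.49 and -0.33 in the other WT libraries, between 0.12 and 0.33 in vehicle and between -0.19 and 0.13 in TMB libraries. Values without WT F4 are given below for every gene whose call it changed, and the calls without vehicle F2 beside them. The design text counts 3 WT mice whereas 4 are labelled, and all 4 were used. Rod markers were abundant in every library, with a summed level of 57629 to 72239 CPM in WT, 53469 to 62556 in vehicle and 52190 to 58319 in TMB, and of the 10 rod markers 1 rose and 4 fell in vehicle (median log2 fold change -0.25) and 1 rose and 1 fell in TMB (median -0.22). The 10 cone markers summed to 1300.02 to 1421 CPM in WT, 162 to 224 in vehicle and 139 to 208 in TMB, and all 10 were lower in both Rpe65-/- groups (edgeR, adjusted p under 0.05). Markers of Müller glia summed to 2746 to 3289.9 CPM in WT, 3386 to 4895 in vehicle and 3291 to 3598 in TMB, and those of pigment epithelium to 70.2 to 120.4, 127 to 500.5 and 153 to 204, the last being highest in vehicle F2. Of these, 3 of 5 Müller markers and 4 of 7 pigment epithelium markers rose in vehicle, and 0 of 5 and 2 of 7 in TMB (edgeR). Microglia markers summed to 24.99 to 27.5 CPM in WT, 41.0 to 48.3 in vehicle and 33.6 to 42.0 in TMB, and 4 of 6 rose in vehicle and 0 in TMB. Ganglion cell markers summed to 795 to 854, 540.1 to 753 and 637 to 690.3 CPM, and 3 of 6 fell in each Rpe65-/- group. Over all genes tested, 15.7% rose and 18.3% fell in vehicle and 4.51% rose and 5.02% fell in TMB. The marker counts are to be read beside those shares. In TMB over vehicle 0 markers of these cell types were called, as were 0% of all genes. None of the markers in the table was at 0 in every library. The part of these differences in the results below was not tested, and in bulk tissue fewer cells of a type and less RNA per cell cannot be told apart.

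The outer segment is a modified cilium packed with membrane discs, and new discs form at its base while old ones are shed to the pigment epithelium. Prph2 and Rom1 encode tetraspanins that bind each other and hold the curved rim of each disc. Prom1, Cdhr1 and Fscn2 act where discs form, Rp1 and Rp1l1 line the axoneme, and Impg1 and Impg2 encode proteoglycans of the interphotoreceptor matrix between photoreceptors and pigment epithelium. Variants in most of these genes cause inherited retinal degeneration in humans.

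Sequence upstream of the start site is shown for both rim genes and for both matrix genes. Over the 13 libraries the log2 CPM of the rim pair had an r of 0.97 and that of the matrix pair 0.03. After the mean of each group was taken away the r was 0.96 and 0.94. The windows are from RefSeq on GRCm38.p6, cover up to 250 bases before the start, and end before the first exon of the GENCODE M21 annotation. Capitals mark TAATC or its reverse complement GATTA, the core of the site bound by the photoreceptor homeodomain factor CRX.
Prph2, chr17:46910228-46910458, plus strand: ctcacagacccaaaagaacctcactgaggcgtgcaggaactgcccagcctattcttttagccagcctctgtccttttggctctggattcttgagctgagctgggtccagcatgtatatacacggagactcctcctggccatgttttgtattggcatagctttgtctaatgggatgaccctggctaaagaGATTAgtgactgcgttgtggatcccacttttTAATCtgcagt
Rom1, chr19:8929357-8929606, minus strand: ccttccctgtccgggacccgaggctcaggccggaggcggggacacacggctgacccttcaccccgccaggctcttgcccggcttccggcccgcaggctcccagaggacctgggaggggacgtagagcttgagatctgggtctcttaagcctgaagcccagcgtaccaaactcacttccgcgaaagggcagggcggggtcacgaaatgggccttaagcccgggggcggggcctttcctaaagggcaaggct
Impg1, chr9:80465482-80465688, minus strand: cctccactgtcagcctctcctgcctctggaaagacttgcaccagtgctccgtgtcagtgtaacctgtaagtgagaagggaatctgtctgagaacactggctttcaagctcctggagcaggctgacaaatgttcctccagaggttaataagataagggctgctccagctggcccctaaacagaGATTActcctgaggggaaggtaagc
Impg2, chr16:56204063-56204312, plus strand: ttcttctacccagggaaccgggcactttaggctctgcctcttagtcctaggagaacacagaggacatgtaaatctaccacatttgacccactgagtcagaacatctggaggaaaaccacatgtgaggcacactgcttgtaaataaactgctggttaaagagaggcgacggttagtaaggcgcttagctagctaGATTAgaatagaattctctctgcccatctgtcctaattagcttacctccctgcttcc

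Windows were matched for 7 of the 9 genes, namely Prph2, Rom1, Prom1, Cdhr1, Fscn2, Impg1 and Impg2. TAATC or GATTA, searched on both strands over the full 250 bases, was found in 4 of them: Prph2 and Impg1 held 2 matches each, and Impg2 and 1 of the start sites of Prom1 held 1 each. Of the 2 matches of Impg1, 1 lies past the stretch shown. The same letters occurred in 19.8% of all 32851 mouse windows of this length. TGCTGA or its reverse complement TCAGCA, part of the site bound by the rod factor NRL, was found in 0 of the 7 genes and in 16.1% of all windows. These are matches of letters and say nothing of binding.

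Together the 9 genes took 1.35% ± 0.0617 (SD, n = 4) of nuclear counts in WT, 1.28% ± 0.0934 (n = 4) in vehicle and 1.31% ± 0.0594 (n = 5) in TMB libraries. Per kilobase of exon in the WT retina, Prph2 was the most abundant at 1427 CPM per kb, followed by Rom1 at 979, Cdhr1 at 294, Rp1 at 278, Impg1 at 152, Prom1 at 132, Rp1l1 at 91.1, Impg2 at 73.7 and Fscn2 at 56.3. The WT libraries of neighbours in this order overlapped for Prph2 and Rom1, Cdhr1 and Rp1, Impg1 and Prom1, Rp1l1 and Impg2, and Impg2 and Fscn2. In both Rpe65-/- groups the mean of Impg2 stood above that of Impg1 instead of below that of Rp1l1. It was 144 CPM per kb in vehicle and 170.2 in TMB, and the order of the other genes was as in WT. The libraries of Impg2 and Impg1 overlapped in both groups, as did those of Impg1 and Prom1. In vehicle those of Rp1 and Impg2 and those of Prom1 and Rp1l1 overlapped as well.

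**Figure D1:**
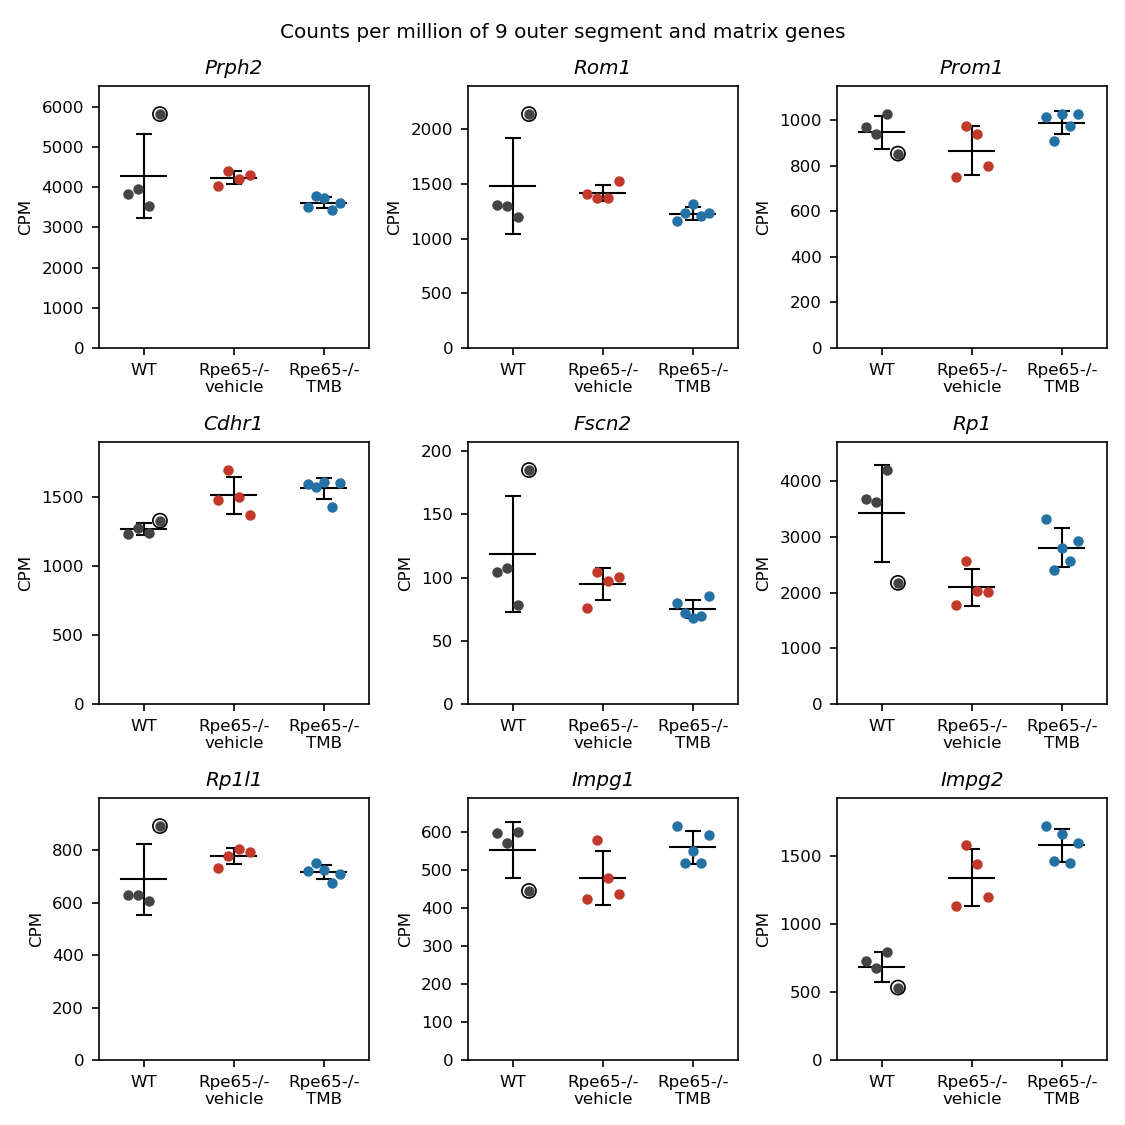
CPM (linear axis from 0) of the 9 genes in each library, by group; points are libraries, horizontal lines means and bars SD, and the ringed point is WT F4. Impg2 lay above all WT libraries in all 9 Rpe65-/- libraries, and WT F4 was the highest WT library for 5 genes and the lowest for 4.

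Of the 9 genes, 2 differed between vehicle and WT at an adjusted p under 0.05 in edgeR's quasi-likelihood test, where 33.9% of all 16782 genes tested did: Impg2 was higher, as were 15.7% of all genes, and Rp1 was lower, as were 18.3%. Between TMB and WT 2 also differed, against 9.53% of all genes: Impg2 was higher, as were 4.51% of all genes, and Fscn2 was lower, as were 5.02%. Between TMB and vehicle 0 differed, as did 0% of all genes, while 3064 genes had an unadjusted p under 0.05. The median log2 fold change of the 9 genes was -0.15 for vehicle over WT, beside 0.02 over all genes tested, and -0.06 for TMB over WT, beside -0.0027 over all genes. The CPM of the groups did not overlap for 2 genes in each comparison (Cdhr1 and Impg2 for both comparisons with WT, Prph2 and Rom1 for TMB and vehicle), where 19.4%, 11.5% and 14.2% of all genes did not overlap. Both comparisons with WT share the same 4 WT libraries.

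**Figure D2:**
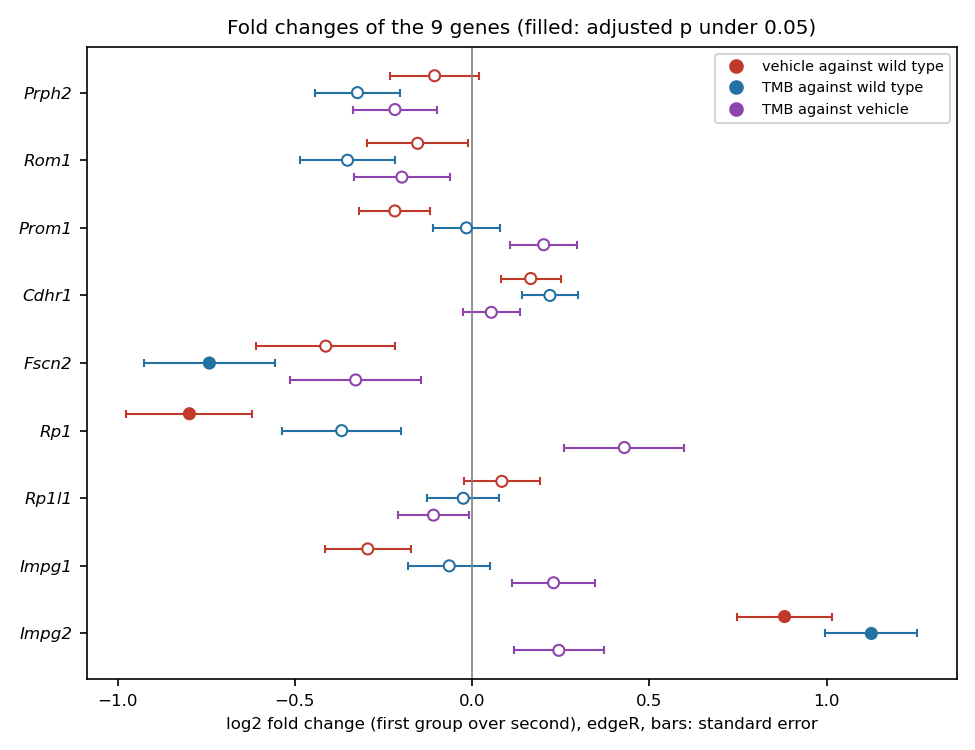
Log2 fold change (first group over second, edgeR) of each gene in the 3 comparisons, with the standard error as bar; filled points have an adjusted p under 0.05. Only Impg2 in both comparisons with WT, Rp1 in vehicle over WT and Fscn2 in TMB over WT are filled.

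Impg2 was the member called in both comparisons with WT. It encodes a membrane-spanning proteoglycan of the interphotoreceptor matrix and lies on chromosome 16 (56204313 to 56273756, plus strand, GRCm38). Its level was 729, 678, 796 and 533 CPM in WT M1, M2, F3 and F4. In vehicle F1, F2, M4 and M5 it was 1136, 1584, 1441 and 1196 CPM. In TMB F1, F3, F4, M5 and M6 it was 1720.3, 1461, 1663, 1450.1 and 1596 CPM. Every Rpe65-/- library lay above every WT library, and the ranges of vehicle and TMB overlapped. The log2 fold change was 0.88 ± 0.13 (SE; adjusted p = 0.000536, edgeR) in vehicle and 1.13 ± 0.13 (adjusted p = 4.38e-05) in TMB over WT, that is 1.84-fold and 2.18-fold. TMB and vehicle did not differ at the threshold (0.24 ± 0.13, adjusted p = 0.297). Of 25 alternatives 1 called this difference, the fit without both WT F4 and vehicle F2 (adjusted p = 0.0173, edgeR). That fit called 3436 of all 17039 genes tested.

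Impg1 encodes the other proteoglycan of this matrix, which is secreted, and lies on chromosome 9 (80313330 to 80465481, minus strand). It measured 595, 571, 599 and 444 CPM in the WT libraries, 422, 579, 478 and 435 CPM in vehicle and 614, 518, 548, 519 and 592 CPM in TMB libraries. All 3 groups overlapped. Its log2 fold change over WT was -0.29 ± 0.12 in vehicle (adjusted p = 0.0716, edgeR) and -0.06 ± 0.12 in TMB (adjusted p = 0.748). Thus the gene of one matrix proteoglycan was higher in the Rpe65-/- retina and that of the other did not pass the test.

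The ratio of Impg1 to Impg2 counts within a library carries no effect of library size. It was 0.817, 0.843, 0.753 and 0.833 in the WT libraries, 0.371, 0.365, 0.332 and 0.364 in vehicle and 0.357, 0.355, 0.329, 0.358 and 0.371 in TMB libraries. The Rpe65-/- libraries lay within a narrow range well below the WT libraries, and WT F4 lay inside the WT range. The mean log2 ratio was -0.30 ± 0.07 (SD, n = 4) in WT, -1.48 ± 0.07 in vehicle (n = 4; two-sided exact permutation p = 0.0286) and -1.50 ± 0.06 in TMB libraries (n = 5; exact permutation p = 0.0159), a difference from WT of -1.18 and -1.20, each p being the smallest that groups of these sizes allow. Adjusted over the 9 ratio tests both gave 0.0952 and so missed the threshold. The difference between TMB and vehicle was -0.02 (exact permutation p = 0.635). After removal of each library's GC trend the differences from WT were -1.31 and -1.24.

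**Figure D3:**
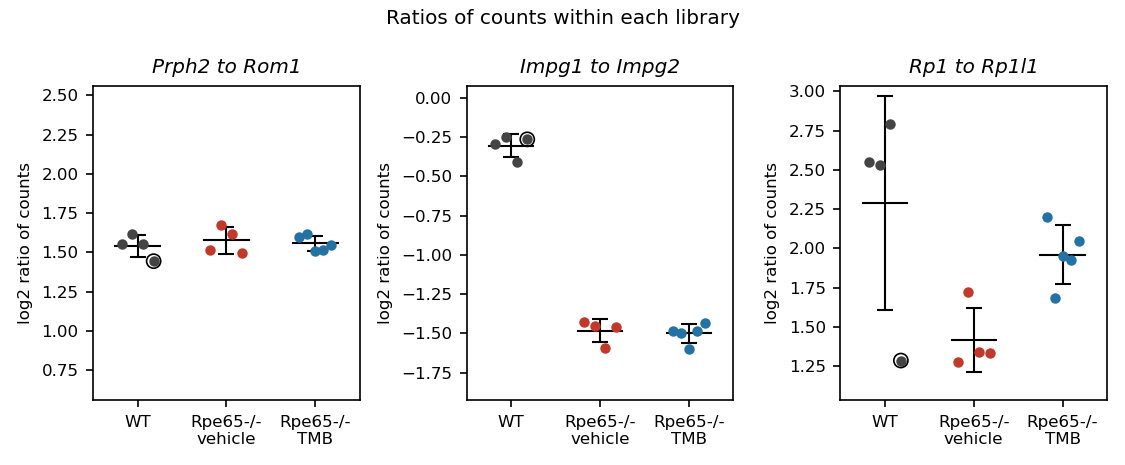
Log2 ratio of counts of paired genes within each library; points are libraries, lines means, bars SD, and the ringed point is WT F4, with each axis spanning the same number of log2 units. Impg1 to Impg2 was lower in all 9 Rpe65-/- libraries than in any WT library, Prph2 to Rom1 was at about the same level in all libraries, and Rp1 to Rp1l1 of WT F4 lay with the vehicle libraries.

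Rp1 encodes a microtubule-associated protein of the axoneme that keeps discs aligned, and lies on chromosome 1 (3999557 to 4409241, minus strand). Its level was 3690.5, 3635 and 4202 CPM in WT M1, M2 and F3 but 2176 CPM in WT F4. In vehicle F1, F2, M4 and M5 it was 1776, 2563, 2030.2 and 2004 CPM. In TMB F1, F3, F4, M5 and M6 it was 3318, 2407, 2802, 2569 and 2928 CPM. The vehicle libraries lay below the first 3 WT libraries, WT F4 lay among the vehicle libraries, and TMB lay between with some overlap. The log2 fold change over WT was -0.80 ± 0.18 in vehicle (adjusted p = 0.00609, edgeR) and -0.37 ± 0.17 in TMB (adjusted p = 0.178), and TMB over vehicle gave 0.43 ± 0.17 (adjusted p = 0.254). The size of the vehicle difference moved with the settings: it was -0.96 without WT F4 (adjusted p = 1.69e-05) and -0.32 with the GC trend removed (adjusted p = 0.0154).

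Rp1l1, the paralogue of Rp1 at the axoneme, lies on chromosome 14 (63992506 to 64035025, plus strand). It measured 629.9, 629.8, 607 and 892 CPM in the WT libraries, 733, 779, 804 and 795 CPM in vehicle and 721, 750.5, 726, 676 and 708 CPM in TMB libraries. WT F4 was the highest of all libraries and the other WT libraries were the lowest. Its log2 change over WT was 0.08 ± 0.11 in vehicle (adjusted p = 0.550, edgeR) and -0.02 ± 0.10 in TMB (adjusted p = 0.884). The direction in vehicle depended on the setting, at 0.23 without WT F4 (adjusted p = 0.00514) and -0.19 with the GC trend removed (adjusted p = 0.0452).

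The ratio of Rp1 to Rp1l1 counts was 5.86, 5.77 and 6.93 in WT M1, M2 and F3 and 2.44 in WT F4, 2.42, 3.29, 2.53 and 2.52 in vehicle and 4.60, 3.21, 3.86, 3.80 and 4.13 in TMB libraries. The log2 difference from WT was -0.87 in vehicle (exact permutation p = 0.114) and -0.33 in TMB (exact permutation p = 0.365), and TMB exceeded vehicle by 0.54 on the log2 scale (exact permutation p = 0.0317, 0.0952 adjusted over the 9 ratio tests), with ranges that overlapped only through vehicle F2. With the GC trend removed this difference was 0.10.

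Prph2 lies on chromosome 17 (46910459 to 46924933, plus strand) and Rom1 on chromosome 19 (8927382 to 8929356, minus strand). Prph2 measured 3826, 3961, 3528 and 5820.2 CPM in WT M1, M2, F3 and F4, 4025, 4395, 4197 and 4310 CPM in vehicle and 3515, 3777, 3737, 3438 and 3619 CPM in TMB libraries. Rom1 measured 1306, 1294, 1200.2 and 2139 CPM in the WT libraries, 1408, 1376, 1371 and 1525 CPM in vehicle and 1161, 1232, 1314, 1203 and 1237 CPM in TMB libraries. For both rim genes WT F4 was the highest of all 13 libraries, and every TMB library lay below every vehicle library. The log2 fold change of Prph2 was -0.11 ± 0.13 in vehicle over WT (adjusted p = 0.523, edgeR), -0.32 ± 0.12 in TMB over WT (adjusted p = 0.101) and -0.22 ± 0.12 in TMB over vehicle (adjusted p = 0.315). For Rom1 the same comparisons gave -0.15 ± 0.14, -0.35 ± 0.13 and -0.20 ± 0.14, with adjusted p of 0.408, 0.115 and 0.397 in edgeR.

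The ratio of Prph2 to Rom1 counts stayed between 2.72 and 3.19 in all 13 libraries, WT F4 being the lowest. The log2 ratio differed by 0.03, 0.02 and -0.02 in the 3 comparisons (exact permutation p = 0.486, 0.667 and 0.667). With the GC trend removed these differences were 0.19, 0.08 and -0.11, so their size depended on the setting. All 3 missed the threshold (exact permutation, adjusted p = 0.0857, 0.114 and 0.107). Of all tested genes with at least 5 CPM, Rom1 was the one whose log2 CPM followed that of Prph2 most closely over the 13 libraries (r = 0.97), and Prph2 the one nearest to Rom1. After the mean of each group was taken away the r of the pair was 0.96, below that of Prph2 with Rp1l1 or Osbp2 (0.97 for each). The libraries share group and base composition effects, so the value is a description.

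Prom1 encodes a membrane protein of the evaginating disc edge and lies on chromosome 5 (43993620 to 44102032, minus strand). It measured 968, 940.2, 1025 and 853 CPM in the WT libraries, 751, 973, 937 and 799 CPM in vehicle and 1012, 906, 1026, 976 and 1025 CPM in TMB libraries. All groups overlapped. Prom1 changed over WT by a log2 value of -0.22 ± 0.10 in vehicle (adjusted p = 0.098, edgeR) and -0.02 ± 0.09 in TMB (adjusted p = 0.917). The antisense gene Gm16401 shares 424 exonic bases with Prom1, 5.91% of its exon length, and averaged 66 counts per library. The sources used here do not say whether counting used the strand, so reads of the shared stretch cannot be told apart.

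Cdhr1, a photoreceptor cadherin that links nascent discs to the inner segment, lies on chromosome 14 (37077857 to 37098347, minus strand). It measured 1238, 1276, 1243 and 1331 CPM in the WT libraries, 1485, 1699, 1505 and 1376 CPM in vehicle and 1601, 1574, 1615, 1429 and 1607 CPM in TMB libraries. In CPM every Rpe65-/- library lay above every WT library, by a small margin. CPM carry no TMM scaling factor, which was 0.948 to 0.975 in WT and 0.993 to 1.036 in Rpe65-/- libraries. Over WT the log2 fold change was 0.17 ± 0.08 in vehicle (adjusted p = 0.131, edgeR) and 0.22 ± 0.08 in TMB over WT (adjusted p = 0.0972), so neither passed the threshold. With total counts as the scale, without TMM, both passed, at 0.25 in vehicle (adjusted p = 0.0220, edgeR) and 0.30 in TMB (adjusted p = 0.0170).

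Fscn2, an actin-bundling fascin of photoreceptors, lies on chromosome 11 (120361534 to 120368168, plus strand) and was the least abundant of the 9 per length. It measured 104, 108, 78.7 and 185 CPM in the WT libraries, 76.2, 105, 97.6 and 100.5 CPM in vehicle and 80.1, 72.2, 68.2, 69.5 and 85.3 CPM in TMB libraries. WT F4 was far above the other libraries, and WT F3 lay within the TMB range. The log2 fold change over WT was -0.41 ± 0.20 in vehicle (adjusted p = 0.108, edgeR) and -0.74 ± 0.19 in TMB (adjusted p = 0.0205), and TMB over vehicle gave -0.33 ± 0.19 (adjusted p = 0.323). Without WT F4 the TMB difference was -0.44 (adjusted p = 0.00645), and the call was lost without TMB F3 (adjusted p = 0.0516) or without TMB F4 (adjusted p = 0.0554).

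The 9 genes split by base composition in WT F4. It was the highest WT library for the 5 genes whose longest transcript had a GC content of 50.8% to 59.1% (Prph2, Rom1, Cdhr1, Fscn2 and Rp1l1) and the lowest for the 4 with 39.6% to 45.8% (Rp1, Impg2, Impg1 and Prom1). After removal of each library's GC trend, 6 of the 9 genes differed between vehicle and WT in edgeR, against 19.6% of all genes: Prph2 at -0.32 ± 0.08, Rom1 at -0.51 ± 0.07, Fscn2 at -0.84 ± 0.14, Rp1 at -0.32 ± 0.09, Rp1l1 at -0.19 ± 0.06 and Impg2 at 1.23 ± 0.09. Between TMB and WT 4 then differed, against 15.8% of all genes: Prph2 at -0.40 ± 0.07, Rom1 at -0.48 ± 0.07, Fscn2 at -0.88 ± 0.13 and Impg2 at 1.28 ± 0.08. Both rim genes were thus lower than in WT in both groups under this setting, while neither passed the edgeR test with all libraries and no such removal. With DESeq2 instead of edgeR, and no such removal, Prph2 in TMB over WT passed at -0.33 (adjusted p = 0.0498). Without WT F4 both rim genes stood at 0.08 in vehicle over WT.

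Without WT F4, 5 of the 9 genes differed between vehicle and WT, against 55.6% of all genes: Prom1 at -0.26, Rp1 at -0.96, Rp1l1 at 0.23, Impg1 at -0.38 and Impg2 at 0.78. Without vehicle F2, 4 differed, against 30.6% of all genes: Prom1 at -0.29, Rp1 at -0.93, Impg1 at -0.42 and Impg2 at 0.77, while in the other comparisons the same genes were called as with all libraries. Again without WT F4, between TMB and WT 4 differed, against 38% of all genes: Cdhr1 at 0.24, Fscn2 at -0.44, Rp1 at -0.53 and Impg2 at 1.02. Between TMB and vehicle 4 differed, against 16% of all genes: Prph2 at -0.22, Rom1 at -0.20, Fscn2 at -0.33 and Rp1 at 0.43. With the GC trend removed these last values were -0.08, 0.03, -0.04 and 0.16, and 0 of the 9 genes passed the test, against 0.012% of all genes. The part of base composition and of WT F4 in each difference was not tested beyond these values.

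**Figure D4:**
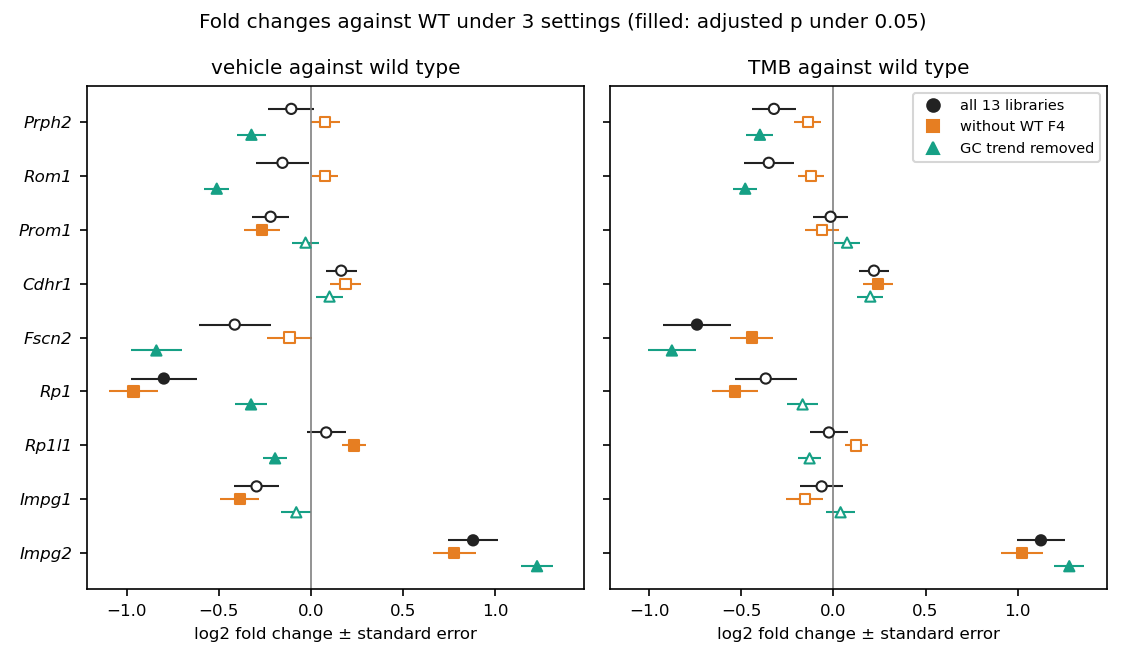
Log2 fold change ± standard error of the 9 genes over WT in vehicle (left) and TMB (right) with all 13 libraries (circles), without WT F4 (squares) and after removal of each library's GC trend (triangles); filled points have an adjusted p under 0.05 in edgeR. Impg2 was filled and to the right of 0 under all 3 settings in both panels, whereas Rp1l1 in vehicle lay at 0.23 without WT F4 and at -0.19 with the GC trend removed.

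Of the genes tested with at least 5 CPM, those whose log2 CPM over the 13 libraries was most like that of Rp1 were Zdhhc2, Sp4 and Armc1 (r = 0.99 for each), with 39.9% to 42.2% GC beside 39.6% for Rp1. Near to Impg2 were Nadk2 and Trim36 (r = 0.97 for each), and nearest to Impg1 were Pla2g7, Cab39l and Ahctf1 (r between 0.96 and 0.97). Impg1 and Impg2 had an r of 0.03 over the 13 libraries and of 0.94 after the mean of each group was taken away. Within groups the pair varied together, and Rp1 also followed both (r = 0.94 with Impg1 and 0.92 with Impg2). These values share depth and base composition effects. Nearest to Prom1 were Slc25a32, Cep162 and Nup155, to Cdhr1 Chd7, Rab27a and Inpp5k, to Fscn2 Agpat3, Kcnj14 and Pdia5, and to Rp1l1 Fbl, Pde6g and Pfdn5, with r between 0.89 and 0.95. Cngb1 and Osbp2 came after Rom1 for Prph2, and Faap100 and Osbp2 after Prph2 for Rom1 (r between 0.95 and 0.96).

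Other genes of the outer segment were counted in 5 lists. Of 12 disc rim and membrane partners, 1 rose and 5 fell in vehicle, with a median log2 fold change of -0.23, and 1 rose and 3 fell in TMB, with a median of -0.26. Over all genes tested, 15.7% rose and 18.3% fell in vehicle and 4.51% rose and 5.02% fell in TMB, against which each count of these lists is to be read. The counts of all 5 lists moved with the setting. With the GC trend removed 1 rim partner rose and 7 fell in each group, where 19.6% and 15.8% of all genes were called. Without WT F4 2 rose and 6 fell in each group, where 55.6% and 38% were called. Rdh8, a retinol dehydrogenase of the outer segment, rose by 0.61 in both groups (adjusted p = 0.00133 in vehicle and 0.00112 in TMB, edgeR), Rdh12, a dehydrogenase of the inner segment, fell in both (-0.43 and -0.38), Gucy2f, a guanylate cyclase of photoreceptors, fell in vehicle (-0.77) and Slc24a1, the rod sodium, calcium and potassium exchanger, fell in TMB (-0.34). Cngb1, a channel subunit that binds the rim complex, gave -0.09 in vehicle (adjusted p = 0.516) and -0.22 in TMB (adjusted p = 0.198).

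Of 10 genes of disc formation and ciliary actin, 1 rose and 3 fell in vehicle (median -0.04) and 0 changed in TMB (median -0.11). Fscn1, the paralogue of Fscn2 found in many cell types, rose in vehicle (0.79 ± 0.21, adjusted p = 0.0129, edgeR), whereas Rp2 (-0.61), Rab28 (-0.23) and Kif3a (-0.20), which act in membrane protein delivery, disc shedding and ciliary transport, fell. Of 12 genes of the axoneme and connecting cilium, 1 rose and 5 fell in vehicle (median -0.24), and 2 rose and 0 fell in TMB (median 0.05). Fam161a (-0.46), Cep290 (-0.68) and Lca5 (-0.31), which encode ciliary proteins, fell in vehicle. Ttll5, a tubulin polyglutamylase, rose in both groups (0.20 and 0.28). This list, too, changed with the setting: in vehicle 1 rose and 9 fell without WT F4, where 55.6% of all genes were called, but 2 rose and 1 fell with the GC trend removed, where 19.6% were called and the median of the list was 0.04. In TMB 2 rose and 3 fell without WT F4 (38% called), and 5 rose and 0 fell with the GC trend removed (15.8% called).

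Of 14 genes of the interphotoreceptor matrix and adhesion, 13 were tested, and 0 rose and 3 fell in each Rpe65-/- group, beside 18.3% of all genes that fell in vehicle and 5.02% in TMB, with medians of -0.07 in vehicle and 0.04 in TMB. Among them were Crb1, a polarity protein at the outer limiting membrane (-0.56 and -0.78), and Hapln1, a link protein for hyaluronan (-1.54 and -1.04), of which Hapln1 had mean levels of only 5.62, 2.04 and 2.88 CPM in WT, vehicle and TMB. Rbp3, the retinoid-binding protein of this matrix, gave -0.25 in vehicle (adjusted p = 0.0896) and -0.31 in TMB (adjusted p = 0.0712). Without WT F4 3 genes of this list rose and 3 fell in vehicle (55.6% of all genes called), and 1 rose and 3 fell in TMB (38%). With the GC trend removed 2 rose and 4 fell in vehicle (19.6% called), and 0 rose and 4 fell in TMB (15.8%). Of 12 paralogues of the members, 8 were tested; Fscn1 rose in vehicle, and Prom2 rose in TMB (1.39 ± 0.40, adjusted p = 0.042, edgeR) at mean levels of 0.301 CPM in WT and 0.849 in TMB. In TMB over vehicle 0 genes of the 5 lists changed, and the medians lay between -0.01 and 0.06 except for the axoneme and connecting cilium, at 0.28 beside 0.000517 over all genes. This depended on the setting: without WT F4 (16% of all genes called) 6 of the 12 axoneme genes, 2 rim partners and 2 genes of disc formation rose, and 3 genes of disc formation and 1 paralogue fell. In the fit of only these groups (14.7% called) 6 axoneme genes, 2 rim partners and 1 gene of disc formation rose, and 3 genes of disc formation and 1 paralogue fell. With the GC trend removed 0 genes of the 5 lists changed and the axoneme median was 0.15. Over all genes tested the medians were 0.02 in vehicle and -0.0027 in TMB over WT.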

How the data were processed

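Raw read counts per gene, as the authors deposited them for 29700 nuclear and 16 mitochondrial genes, were used; per the labels and the study's methods, reads were trimmed with Trimmomatic, aligned to GRCm38 (mm10) with STAR and counted with HTSeq. WT counts are listed in 2 sets of columns with identical values. The deposited fold changes and p-values of the authors' DESeq2 comparisons were not used. Mitochondrial genes were left out of library sizes.

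All 13 libraries were fitted together with edgeR 4.0.16 in R 4.3.3 (quasi-likelihood F test, TMM, filterByExpr by group, 16782 genes, Benjamini-Hochberg adjustment over all of them, threshold 0.05). The procedure was also run on simulated counts with a fixed dispersion. These held no GC trend and no outlying library, so that run says nothing of such effects. P-values of edgeR set the difference between groups against the spread between mice within groups, moderated over genes. Those of the exact permutation tests rest on all relabellings of the libraries compared. The standard error given with edgeR values is the absolute log2 fold change divided by the square root of its F statistic. CPM are raw counts scaled to 1e+06 nuclear counts, and 3 counts, the limit that a count of 0 allows, are 0.182 to 0.222 CPM; such limits cover counting error only. Count ratios (pseudocount 0.5) were compared by exact permutation tests in SciPy 1.17.1, adjusted over 9 tests. To remove the GC trend, a cubic curve of log2 CPM deviation against transcript GC content (GENCODE M21, longest transcript) was fitted in each library to 16711 genes, 99.6% of those tested, and entered edgeR as offset. Gene coordinates matched GENCODE M21 for 97.3% of genes. Other alternatives were DESeq2 1.42.0, limma 3.58.1, other scalings and filters, and labelled sex as covariate, with vehicle F2 kept as female. Further ones were only the 2 groups compared, a replicate block and leaving out libraries.

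Members, lists and tests were chosen with earlier results of these data known. The 9 members were named in every library. Of each list, up to 3 called genes per comparison and direction with the smallest adjusted p were named, and per member the 3 genes with the highest Pearson r, passing over Gm, Rik and clone names. Cngb1 and Rbp3 were named after their values were seen. A few genes this would name are not reported here.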

Additional observations from a re-analysis of the deposited data

Results flagged for a closer look

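In 4 of the 36 groups of 4 or 5 libraries examined, 1 library lay further from its neighbours than Dixon's 95% critical value; chance gives about 1 such library in 20 groups. Rom1 in WT F4 was at 2139 CPM, above 1200.2 to 1306 CPM in the other WT libraries. Rp1l1 in WT F4 was at 892 CPM, above 607 to 629.9 CPM in the other WT libraries. Cdhr1 in TMB M5 was at 1429 CPM, below 1574 to 1615 CPM in the other TMB libraries. The log2 ratio of Rp1 to Rp1l1 in vehicle F2, whose sex-linked genes go against its label, was 1.72, above 1.28 to 1.34 in the other vehicle libraries.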

How the results depend on the processing

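The higher Impg2 level held its call in 25 of 25 alternatives in both comparisons with WT (log2 fold change 0.67 to 1.26 in vehicle, 1.02 to 1.33 in TMB). The lower Rp1 level in vehicle held in 24 of 25 and was lost with the replicate block and the GC trend removed together (-0.31, adjusted p = 0.0694, edgeR). The lower Fscn2 level in TMB held in 22 of 25 and was lost without TMB F3, without TMB F4 and with the replicate block (adjusted p = 0.0924). Rp1l1 in vehicle over WT turned to -0.19 (adjusted p = 0.0452) with the GC trend removed. Groups of these sizes could hardly pass the threshold over 9 ratio tests, so those p-values say nothing of stability; the Impg1 to Impg2 difference from WT lay between -1.31 and -1.14 in vehicle and between -1.24 and -1.17 in TMB over the alternatives. With total counts as the scale the median of all genes moved to 0.106 for vehicle and 0.0768 for TMB over WT, with Impg2 and Rp1 in the same direction.

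For vehicle over WT, TMB over WT and TMB over vehicle, leaving out 1 library gave 2 to 5, 1 to 4 and 0 to 4 of the 9 genes, and 2849 to 9510, 896 to 6490 and 0 to 2741 of all genes; the highest values came without WT F4, and without vehicle F2 4 genes were called in vehicle over WT. Without both WT F4 and vehicle F2, 5, 4 and 5 of the 9 genes and 9521, 6665 and 3436 of all genes were called. In TMB over vehicle this setting alone called Impg2, Impg1 and Prom1, all higher in TMB (adjusted p = 0.0173, 0.00712 and 0.0243, edgeR). With the GC trend removed, 6, 4 and 0 of the 9 genes and 3280, 2640 and 2 of all genes were called. Fits of only the 2 groups compared called 2, 2 and 3 of the 9 genes and 2861, 1053 and 2402 of all genes. DESeq2 called 64 genes and no filter on low counts 2 genes for TMB over vehicle. The cause of these differences was not tested.

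Numbers in the library names name no shared litter or batch. The 9 pairs with the same number had correlations of their deviations between -0.17 and 0.25. No values for pairs with different numbers stand beside these, so they cannot decide whether the numbers pair the mice. With the number as a replicate block, 2, 1 and 0 of the 9 genes and 2224, 567 and 0 of all genes were called, and with the replicate block and the GC trend removed together 4, 4 and 0 of the 9 genes and 2264, 1643 and 4 of all genes.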
